A study of Rattus norvegicus with 22 samples.

Results

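Iron handling in the liver was described through 8 genes: the transferrin receptors Tfrc and Tfr2, the divalent metal transporter Slc11a2, the iron exporter Slc40a1, the hormone gene Hamp, the sensor Hfe, and the iron regulatory proteins Aco1 and Ireb2. They were taken by symbol from the 18166 genes that had a probe set with a single gene symbol, and each was read by 1 probe set. Expression was measured on 22 Affymetrix arrays, 1 per animal, with total RNA from the median liver lobe of female Crl:CD(SD) rats, an outbred Sprague-Dawley stock, listed as 12 weeks old. The treated group, 10 rats, received a single intraperitoneal injection of GSK932121A at 50 mg/kg, and their livers were labelled as exposed for 5 hours. The vehicle group, 12 rats, received the same formulation without the compound, and the labels give no time for it. By the series title, GSK932121A inhibits complex III, part of the mitochondrial respiratory chain. Submitters left out 2 treated animals with low plasma exposure, and both groups carried an implanted identification and temperature chip. The series holds a single dose of the compound and 1 sex, and the labels do not say which animals shared a cage or a day. The p-values set the group difference against the spread between these animals. A cage or day that went with group could not be told apart from the treatment.

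Hepatocytes take up transferrin-bound iron through transferrin receptors, store it in ferritin and release it through ferroportin, the product of Slc40a1. Hepcidin, the peptide encoded by Hamp, is secreted by hepatocytes and makes ferroportin be internalised and degraded. Hamp transcription is driven by bone morphogenetic protein (BMP) signalling through SMAD factors, to which HFE, transferrin receptor 2 and hemojuvelin contribute, and by interleukin 6 through STAT3. When iron is short, the iron regulatory proteins encoded by Aco1 and Ireb2 bind stem-loops of target mRNAs, which stabilises the Tfrc mRNA and holds back translation of ferritin and ferroportin. The protein of Aco1 is also the cytosolic aconitase when it carries an iron-sulfur cluster. All values below are log2 expression values. A log2 difference is the treated mean minus the vehicle mean, and a gene was called where its adjusted p in limma, over all 18166 genes, was under 0.05.

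Promoters are shown for the pair of receptors whose values moved in opposite directions and for Hamp. The upstream sequence of Hamp matched the letters of a BMP motif and of a STAT motif. Each sequence lies before the start given in the RefSeq promoter table (GRCr8), on the minus strand, and capitals mark matches to the motifs searched. Tfrc and Hamp are shown for 250 bases. The table's start of Tfr2 lies inside the annotated gene, so the 45 bases that belong to the gene were left off and 205 are shown. The positions are chr11:81690319-81690568 for Tfrc, chr12:24761414-24761618 for Tfr2 and chr1:95300272-95300521 for Hamp.
Tfrc: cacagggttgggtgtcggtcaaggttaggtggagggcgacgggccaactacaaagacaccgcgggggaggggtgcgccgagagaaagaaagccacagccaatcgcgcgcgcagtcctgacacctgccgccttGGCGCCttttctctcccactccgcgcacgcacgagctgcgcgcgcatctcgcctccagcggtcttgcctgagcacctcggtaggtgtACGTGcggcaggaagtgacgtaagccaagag
Tfr2: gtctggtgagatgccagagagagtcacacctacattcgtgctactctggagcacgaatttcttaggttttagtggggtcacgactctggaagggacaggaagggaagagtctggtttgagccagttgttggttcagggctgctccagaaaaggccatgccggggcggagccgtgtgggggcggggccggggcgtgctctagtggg
Hamp: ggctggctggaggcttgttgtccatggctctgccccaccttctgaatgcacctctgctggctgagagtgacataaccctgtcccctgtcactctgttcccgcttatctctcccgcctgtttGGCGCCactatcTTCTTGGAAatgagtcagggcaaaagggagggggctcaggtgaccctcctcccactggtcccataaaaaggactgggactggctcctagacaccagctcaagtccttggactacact
A total of 8 motifs was searched on both strands from 250 bases before to 50 bases after the start, in 33469 promoters. Hamp held GGCGCC, the core of the BMP response element, at positions -129 to -124, and TTCTTGGAA, a match to the STAT motif TTCNNNGAA, at -117 to -109, counted back from the start. These motifs were present in 11.0% and 8.87% of all promoters. Tfrc held GGCGCC at -118 to -113 and ACGTG, the core of the hypoxia response element found in 19.3% of promoters, at -31 to -27. Tfr2 held none of the motifs, and of the members with a promoter in the table, 7 of 8, the remaining 4 held none either. The windows of Slc40a1, Slc11a2 and Ireb2 lay wholly inside their annotated genes, which have other starts upstream. The other motifs searched were TTGCNNAA (C/EBP, 10.6% of promoters), TGACGTCA (CRE, 1.83%), TTGCATCA (ATF4 with C/EBP, 0.795%), CACGTG (E-box, 6.42%, which contains ACGTG) and the full glucocorticoid response element (0.0149%). A match is a string of letters and not a measured binding site.

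Array medians ran from 4.73 to 4.85 and all arrays differed from each other. Precision is limited by how many arrays each group has. The tissue label was checked against markers: Alb, which encodes albumin, was at 13.41 ± 0.03 in vehicle and 13.38 ± 0.04 in treated livers (SD, n = 12 and 10). Because ferroportin, Tfrc and Slc11a2 are also used by macrophages and erythroid cells, markers of those cells were read beside the members. Of all genes, 12.4% were called and 24% had an unadjusted p under 0.05 in limma. Of 14 Kupffer cell and macrophage markers, 1 was called, the haptoglobin-hemoglobin receptor Cd163, which rose 1.28-fold. The mean log2 value of that list ran from 7.49 to 8.07 in vehicle and from 7.62 to 8.04 in treated livers, and Clec4f, a Kupffer cell lectin, was at 8.00 and 8.06. Of 7 erythroid markers limma called 0, with 0 at an unadjusted p under 0.05 and 0 by the Welch and Wilcoxon tests, and their mean ran from 4.89 to 5.32 in vehicle and from 4.85 to 5.51 in treated livers. The part of these cells in the results was not tested. In whole liver, a lower share of a cell type and less RNA per cell cannot be told apart.

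The comparison asked which of the 8 genes differ between GSK932121A and vehicle. After GSK932121A, Tfrc was higher and Tfr2, Slc40a1 and Aco1 were lower, while Hamp, Hfe, Slc11a2 and Ireb2 did not pass. Thus 4 of 8 members were called, 1 up and 3 down, where 12.4% of all genes were called, 5.31% up and 7.05% down. At an unadjusted p under 0.05 there were 6 of 8 members, beside 24% of all genes. Brighter genes were called more often than all genes, and the members are not dim. Of 10410 genes with a mean log2 value of at least 5, tested alone, limma called 2385, with 4 of 8 members. Of 4199 genes with a mean of at least 7 it called 1217, with 4 of 6 members. The members were chosen with earlier results of these data known, so these counts are a description. The 3 falls were at most 1.22-fold, and the median log2 difference was 0.01 over the 8 members and -0.01 over all genes. For no member did the groups separate completely, which 0.738% of all genes did, 0.457% with all treated livers higher and 0.281% with all lower. For 4 of 8 members at least 5 of 10 treated livers lay above, or at least 5 below, every vehicle liver. Of all genes 12.3% did so. With 5 surrogate variables for hidden factors, which carried 45.5% of the variance of group, limma called 0 of the 8 (2 at an unadjusted p under 0.05) and 3.32% of all genes. Against a 1.2-fold change in place of none, limma also called 0 (1 at an unadjusted p under 0.05) and 1.72% of all genes. The Welch and Wilcoxon tests each called 3 of the 8, beside 11.1% and 11.3% of all genes.

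**Figure D1:**
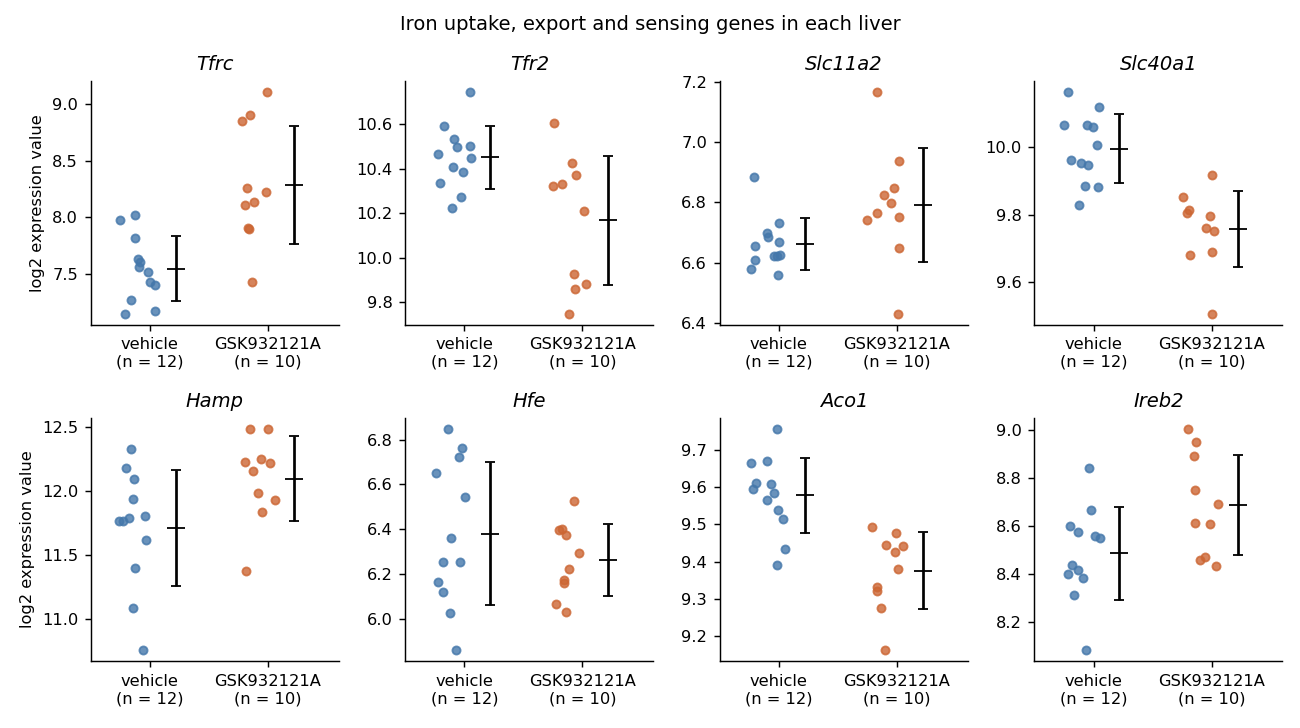
Log2 expression value of the 8 genes in each liver, vehicle in blue (n = 12) and GSK932121A in orange (n = 10), with the mean and SD beside the points and an axis range of its own for each gene. In Tfrc 7 of 10 treated livers lie above every vehicle liver, and in Slc40a1 8 of 10 lie below.

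Among the uptake genes, Tfrc, the transferrin receptor of most dividing and iron-hungry cells, moved most. In vehicle livers its lowest, median and highest values were 7.15, 7.54 and 8.02, and in treated livers 7.43, 8.18 and 9.10. The groups overlapped, with 7 of 10 treated livers above all vehicle livers and treated replicate 20 inside the lower part of the vehicle range. The mean rose from 7.55 ± 0.29 to 8.28 ± 0.52 (SD, n = 12 and 10), a 1.67-fold rise or 0.74 ± 0.16 on the log2 scale (SE; limma, adjusted p = 0.0023). Of all genes, 1.57% had an absolute difference at least as large. The rise was called without any single array, with an adjusted p of at most 0.0061, and it was not called with surrogate variables (0.27 on the log2 scale, adjusted p = 0.477).

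Tfr2, the hepatocyte receptor that senses transferrin saturation and feeds into Hamp control, was lower. Vehicle livers had 10.23, 10.46 and 10.74 as lowest, median and highest values, and treated livers 9.75, 10.27 and 10.60. The lowest treated livers were replicates 18, 13, 14 and 23, at 9.75, 9.86, 9.88 and 9.93. Replicate 22, at 10.21, was just below the vehicle range, and the other 5 lay inside it. The mean went from 10.45 ± 0.14 to 10.17 ± 0.29 (SD, n = 12 and 10), a 1.22-fold difference in limma (adjusted p = 0.0438). This call was the least stable of the 4. It was lost without any of vehicle replicates 2, 3, 5, 6, 8, 9, 10, 11 and 12 or treated replicates 13, 14, 18, 22 and 23 (limma, adjusted p from 0.0518 to 0.0949), with median centring (0.0567), cyclic loess (0.0981), array weights (0.0609), the Welch test (0.0995) and the Wilcoxon test (0.0925), and with surrogate variables the difference was 0.0059 (0.983).

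Slc11a2 encodes DMT1, which moves ferrous iron across endosomal and cell membranes. Its values ran from 6.56 to 6.88 in vehicle livers, with a median of 6.64, and from 6.43 to 7.17 in treated livers, with a median of 6.78. Treated livers lay on both sides of the vehicle range, 2 above it and 1 below. The log2 difference was 0.13 ± 0.07 (SE), with an unadjusted 95% interval from -0.01 to 0.27, and it did not pass (limma, adjusted p = 0.24).

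Slc40a1, the only known iron exporter of mammalian cells, had the least overlap of the 8. Its lowest, median and highest values were 9.83, 9.99 and 10.16 in vehicle livers and 9.51, 9.78 and 9.92 in treated livers. Of the treated livers 8 of 10 lay below every vehicle liver, and the other 2, replicates 13 and 22, lay in the lower part of the vehicle range. The mean fell from 10.00 ± 0.10 to 9.76 ± 0.11 (SD, n = 12 and 10), by 0.24 ± 0.06 on the log2 scale (SE), which is 1.18-fold (limma, adjusted p = 0.0051). Every array left out in turn kept the call, with an adjusted p of at most 0.0119. With surrogate variables the difference stood at -0.25, and its adjusted p was 0.0523.

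**Figure D2:**
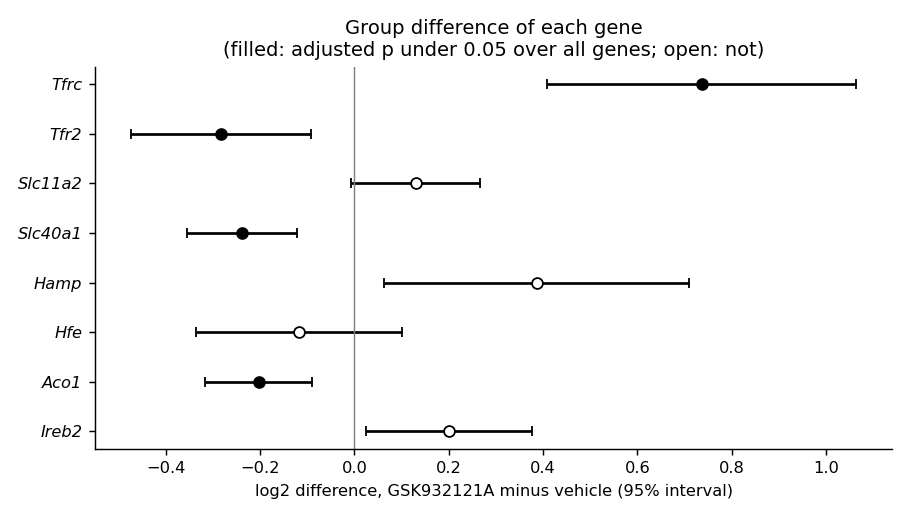
Log2 difference, treated mean minus vehicle mean, of each gene with its unadjusted 95% interval, filled where limma's adjusted p was under 0.05. Tfrc lies highest at 0.74, Tfr2, Slc40a1 and Aco1 lie between -0.28 and -0.20, and the open points are Slc11a2, Hamp, Hfe and Ireb2.

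Hamp encodes hepcidin. Its values were 10.75, 11.78 and 12.33 (lowest, median and highest) in vehicle livers and 11.37, 12.19 and 12.49 in treated livers. Vehicle livers spread over a wide range, with replicates 1 and 10 lowest, and 2 of 10 treated livers exceeded all of them. The mean was 11.71 ± 0.45 in vehicle and 12.10 ± 0.33 in treated livers (SD, n = 12 and 10), a log2 difference of 0.39 ± 0.16 (SE) that did not pass (limma, adjusted p = 0.119). Its unadjusted 95% interval ran from 0.06 to 0.71. The lowest treated value came from replicate 24, and without that liver the difference was 0.47 and passed (adjusted p = 0.0394), while without any other single array the adjusted p reached 0.198 at most and no call was made.

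Hfe, the atypical MHC class I protein that is mutated in hereditary hemochromatosis, spread from 5.86 to 6.85 in vehicle livers (median 6.31) and from 6.03 to 6.52 in treated livers (median 6.26). All treated livers lay inside the vehicle range. The log2 difference was -0.12 ± 0.11 (SE), with a 95% interval from -0.34 to 0.10 (limma, adjusted p = 0.559).

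Of the iron regulatory protein genes, Aco1 fell and Ireb2 did not pass. Aco1 had 9.39, 9.59 and 9.76 as lowest, median and highest values in vehicle livers and 9.16, 9.40 and 9.49 in treated livers, with 5 of 10 treated livers below all vehicle livers. Its mean fell from 9.58 ± 0.10 to 9.38 ± 0.10 (SD, n = 12 and 10), by 0.20 ± 0.06 on the log2 scale (SE; 1.15-fold; limma, adjusted p = 0.0145). That call held without each array in turn, with an adjusted p of at most 0.0331, and was lost with surrogate variables (adjusted p = 0.243). Ireb2, whose protein is regulated by degradation when iron is plentiful, ran from 8.08 to 8.84 in vehicle (median 8.49) and from 8.43 to 9.01 in treated livers (median 8.65), with 3 treated livers above the vehicle range. Its log2 difference was 0.20 ± 0.09 (SE), with a 95% interval from 0.03 to 0.38, and did not pass (limma, adjusted p = 0.139).

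The treated livers differed among themselves in the uptake genes, though not in these alone. The SD of Slc11a2 was 2.21 times, that of Tfr2 2.06 times and that of Tfrc 1.82 times as large in treated as in vehicle livers, those of Slc40a1, Ireb2 and Aco1 were 1.11, 1.08 and 1.03 times as large, and those of Hamp and Hfe were 0.74 and 0.50 times as large. These ratios were not tested, and no share over all genes was taken. Other named genes also spread wider in treated livers, with SDs in vehicle and treated livers of 0.10 and 0.59 for Bach1, 0.52 and 1.84 for Gdf15, and 0.13 and 0.28 for Hjv. Others spread less, such as Il6r (0.31 and 0.22) and Fech (0.16 and 0.11). The treated livers with the highest Tfrc, replicates 14, 13 and 18, stood 1.56, 1.36 and 1.30 above the vehicle mean and had Tfr2 differences from it of -0.57, -0.59 and -0.70. Replicate 20, with a Tfrc difference of -0.12, had the highest Tfr2 of the treated group, 0.15 above. Within the treated group the correlation of both genes was r = -0.89 (permutation p = 0.00050) and rho = -0.82 (permutation p = 0.0059; n = 10). Without the 2 livers farthest from the median of Tfrc it was -0.85. Within the vehicle group it was 0.37 (permutation p = 0.231; rho = 0.20, p = 0.53; n = 12), and the difference between the groups' correlations was not tested.

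This was 1 of 70 relations computed, 28 pairs of members and 7 relations with other genes in each group, with two-sided tests. It was the only 1 with an adjusted p under 0.05 by Pearson's r (0.035), and by ranks none was (0.206 for this pair). With any treated liver left out r stayed between -0.94 and -0.84, with adjusted p from 0.0574 to 0.147. In vehicle livers Tfrc and Hamp had r = -0.66 (permutation p = 0.0181, adjusted p = 0.253; rho = -0.78, p = 0.00477; n = 12; -0.67 without the 2 farthest), and in treated livers r = 0.01 (permutation p = 0.989; rho = -0.09, p = 0.81; n = 10). Slc40a1 and Slc11a2 had r = 0.69 in vehicle livers (permutation p = 0.00823, adjusted p = 0.226; rho = 0.65, p = 0.0259; n = 12), which dropped to 0.37 without the 2 farthest livers, and r = 0.42 in treated livers (permutation p = 0.216; rho = 0.03, p = 0.947; n = 10). Hamp and Bmp6, the gene of its main BMP ligand, had r = 0.76 in treated livers (permutation p = 0.0129, adjusted p = 0.226; rho = 0.66, p = 0.0446; n = 10; 0.67 without the 2 farthest), and r = 0.17 in vehicle livers (permutation p = 0.601; rho = 0.28, p = 0.379; n = 12). None of these 3 relations passed after adjustment. Of the 70 relations, 10 had a permutation p under 0.05 before adjustment. Also among them were, in vehicle livers, Hamp with Atoh8 (r = 0.70, permutation p = 0.0105), Tfr2 with Hfe (-0.61, 0.0355) and Ireb2 with Fbxl5 (0.60, 0.0496). In treated livers they were Hamp with Id1 (0.66, 0.0377) and Tfrc with Fth1 (-0.67, 0.0294), and Hamp with Socs3, given below. Hamp with Smad7 had r = 0.31 in vehicle and 0.20 in treated livers.

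**Figure D3:**
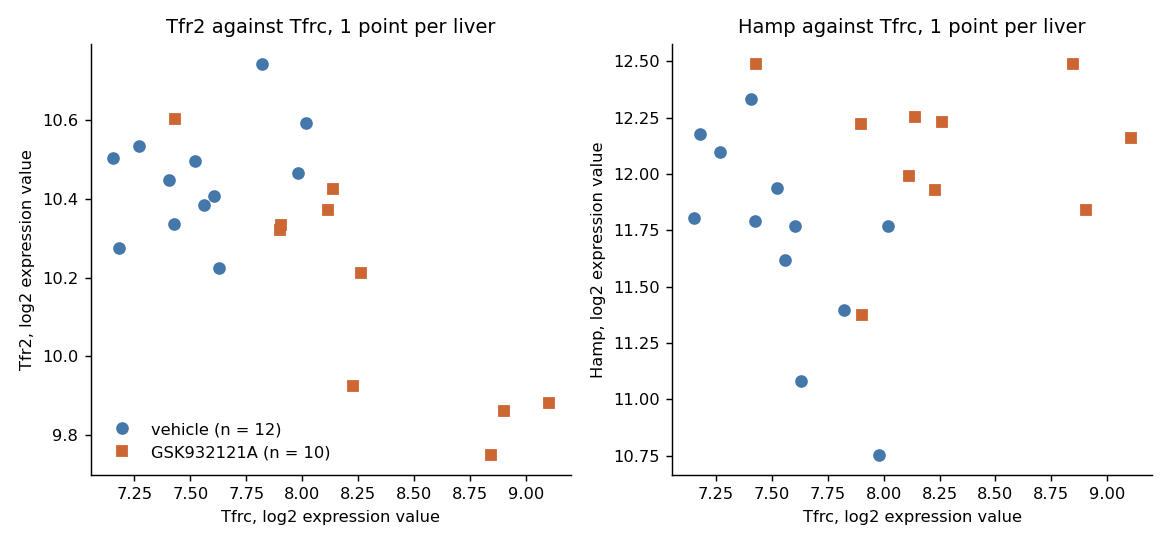
Log2 value of Tfr2 (left) and of Hamp (right) against that of Tfrc, 1 point per liver, vehicle as blue circles (n = 12) and GSK932121A as orange squares (n = 10). In the treated group Tfr2 is lower where Tfrc is higher (r = -0.89), and for Hamp r is 0.01 there.

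Genes most like each called member were found by correlating deviations from the group means over all 22 arrays, among 10410 genes with a mean log2 value of at least 5, as a description without a test. Tfrc and Tfr2 spread wider in treated livers, so those livers weigh more in their r values. For these nearest genes r was not taken within each group. Nearest to Tfrc were Fam43a (r = 0.82), the olfactory receptor gene Or9e1 (0.77) and Lmbr1 (0.77), all of which also rose (limma, adjusted p = 0.000378, 0.0266 and 0.000784). Nearest to Tfr2 were Cldn12, a claudin (0.82), Zfp318 (0.81) and Castor2, of the mTORC1 pathway (0.81), of which Cldn12 and Castor2 fell (limma, adjusted p = 0.0331 and 0.0073). Slc40a1 varied most like Mir483 (0.73), Gbp6 (0.70) and Intu (0.69), and Aco1 most like Rnf10 (0.79), Slc25a3, the mitochondrial phosphate carrier (0.78), and Dus2 (0.76), none of which passed.

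Other genes of iron handling were read from lists chosen from textbook knowledge, as counts beside the background of 12.4%. These lists too were chosen with earlier results of these data known, so their counts are a description. Among 16 genes of other uptake routes and plasma carriage, 2 rose and none fell, with a median difference of 0.03. Slc39a14, the ZIP14 transporter that brings non-transferrin-bound iron into hepatocytes, had means of 10.13 ± 0.11 and 10.80 ± 0.24 (SD, n = 12 and 10), a 1.59-fold rise (limma, adjusted p = 1.66e-06), with 9 of 10 treated livers above every vehicle liver. The other was Cd163. Among 7 genes of iron storage and iron chaperones, Ncoa4, the receptor that delivers ferritin to autophagy, rose 1.19-fold (adjusted p = 0.0174), while the ferritin chains Fth1 and Ftl1 differed by -0.08 and 0.02 and did not pass. For the 5 ferroxidases and heme exporters limma called 0, with 0 at an unadjusted p under 0.05 and 0 by the Welch and Wilcoxon tests. The 95% intervals of the ferritin differences ran from -0.19 to 0.04 for Fth1 and from -0.10 to 0.14 for Ftl1. Fth1 had more than 1 probe set, and with their mean it differed by -0.13 and did not pass (limma, adjusted p = 0.218).

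Upstream of Hamp, 16 of 20 BMP and SMAD regulators did not pass, 3 fell and 1 rose, beside 7.05% down and 5.31% up over all genes. The median was -0.04. Hjv, the hemojuvelin co-receptor, had means of 9.64 ± 0.13 in vehicle and 9.25 ± 0.28 in treated livers (SD, n = 12 and 10), a 1.31-fold fall (adjusted p = 0.0032 in limma). The protease Furin fell 1.19-fold. The activin receptor Acvr2b fell 1.42-fold between values of 4.84 and 4.34, near or below the array medians, and was not among genes tested with a mean of at least 5. Gdf15, a stress cytokine once proposed as a Hamp suppressor, rose 3.67-fold, with 6 of 10 treated livers above the vehicle range, and its call was lost with the Welch (adjusted p = 0.0784) and Wilcoxon (0.0685) tests. Bmp6 and Tmprss6, the hemojuvelin-cleaving protease, differed by -0.06 and -0.15 and did not pass. Of 9 target genes of BMP signalling 3 fell and none rose, with a median of -0.15: Id4 1.58-fold, with all 10 treated livers below every vehicle liver, and the inhibitory factors Smad7 and Smad6 1.32-fold and 1.25-fold. Id1, the target most used as a readout beside Hamp, differed by 0.29 ± 0.14 (SE) and did not pass (limma, adjusted p = 0.212).

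Of 11 genes of the interleukin 6, CREBH and C/EBP arm, 4 rose and 1 fell, with a median of 0.17. Socs3, a feedback inhibitor induced by STAT3, rose 3.11-fold, Cebpb 2.09-fold, with all 10 treated livers above every vehicle liver, Il6r, the interleukin 6 receptor, 1.90-fold and Stat3 itself 1.51-fold. Creb3l3, which encodes CREBH, fell 1.22-fold. Of this arm Hamp was set against Socs3 alone, and the relation did not pass in either group. It was r = 0.70 in treated livers (permutation p = 0.0237, adjusted p = 0.276; rho = 0.48, p = 0.167; n = 10), which dropped to 0.28 without the 2 livers farthest from the median of Hamp. In vehicle livers it was r = 0.47 (permutation p = 0.117, adjusted p = 0.583; rho = 0.66, p = 0.0227; n = 12).

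Of 17 genes that act on the iron regulatory proteins or their targets, 4 rose and none fell, with a median of -0.02. Zfp36 encodes tristetraprolin, an mRNA-decay factor reported to act on the Tfrc mRNA, and rose 3.27-fold, and Zc3h12a, the ribonuclease regnase-1, which also targets Tfrc, rose 1.25-fold. Cisd2, an outer membrane iron-sulfur protein, rose 1.22-fold and Epas1, which encodes HIF-2alpha and carries an iron-responsive element, 1.24-fold. Epas1 lost its call by the Welch test (adjusted p = 0.0834), and in limma without vehicle replicate 5 or treated replicates 13, 14, 16 or 18 (adjusted p from 0.0509 to 0.0663). Fbxl5, the ubiquitin ligase subunit that degrades the Ireb2 protein, differed by -0.13 ± 0.06 (SE) and did not pass (limma, adjusted p = 0.205).

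In mitochondrial iron import and iron-sulfur assembly 1 of 16 genes was called, with a median difference of -0.10. Nfs1, the cysteine desulfurase, fell 1.13-fold (limma, adjusted p = 0.018), a call lost with cyclic loess (0.0907). In heme synthesis and breakdown 2 of 13 rose and 1 fell, with a median difference of -0.15. In limma 7 of these 13 had an unadjusted p under 0.05, beside 24% of all genes. Hmox1, heme oxygenase 1, which frees iron from heme, rose 2.22-fold, Bach1, the heme-sensing repressor of Hmox1, rose 2.26-fold with all 10 treated livers above every vehicle liver, and Fech, which inserts iron into protoporphyrin, fell 1.25-fold. With 5 surrogate variables the calls of Cd163, Ncoa4, Gdf15, Acvr2b, Hjv, Furin, Smad7, Smad6, Creb3l3, Epas1, Cisd2 and Nfs1 were lost (limma, adjusted p from 0.0862 to 0.986), and those of Slc39a14, Id4, Socs3, Cebpb, Il6r, Stat3, Zfp36, Zc3h12a, Bach1, Hmox1 and Fech were kept. Among the kept calls the log2 differences that shrank most, by ratio, were these 4: Zfp36 went from 1.71 to 0.87, Socs3 from 1.64 to 1.03, Bach1 from 1.17 to 0.51 and Cebpb from 1.06 to 0.62. Of the lost calls, Cisd2 had a difference of 0.32 with the surrogate variables and 0.29 without them.

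**Figure D4:**
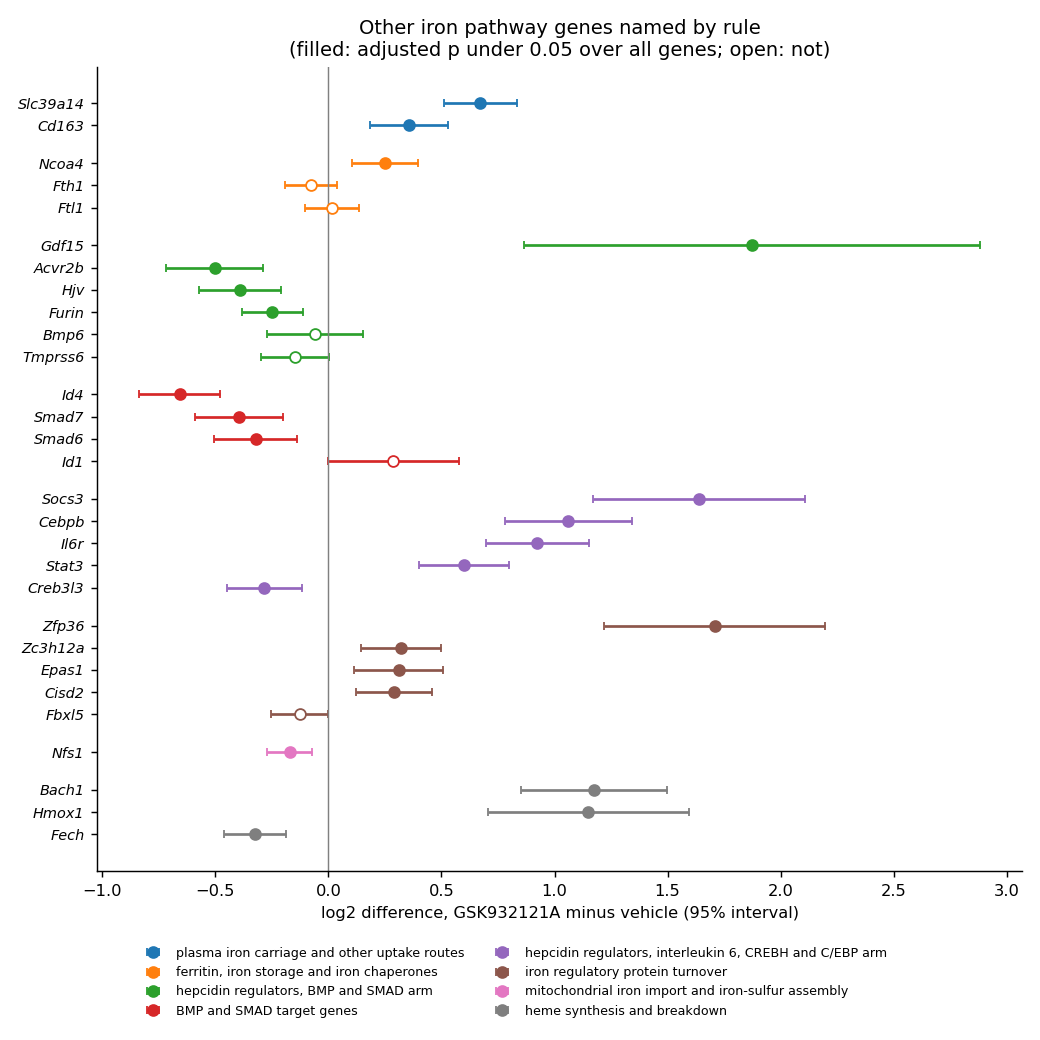
Log2 difference, treated mean minus vehicle mean, with its unadjusted 95% interval, of the other iron pathway genes named by rule, coloured by list and filled where limma's adjusted p was under 0.05. Gdf15, Zfp36 and Socs3 lie farthest to the right, and Id4 lies farthest to the left at -0.66.

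Read liver by liver, the members and these regulators did not share a single order, but some set the same livers apart. Replicates 14, 13, 18, 22 and 23 were the highest in Tfrc, Zfp36 and Gdf15 and the lowest in Tfr2, in differing order. Hamp, Socs3, Hmox1 and Bach1 did not set exactly these livers apart. This was read with the livers ordered by Tfrc and was not tested. How many of all genes set the same livers apart was not counted, so it cannot be called particular to iron genes. Replicates 14, 13 and 18, with the most Tfrc, were 2.67, 2.01 and 2.49 above the vehicle mean in Zfp36. Replicate 20, the only treated liver with Tfrc below the vehicle mean, was 0.99 above it in Zfp36. Replicates 17 and 24, with more Tfrc than replicate 20, were lower in Zfp36, at 0.71 and 0.68, and replicates 22 and 23, with less Tfrc than replicate 13, were higher, at 2.28 and 2.12. Replicate 20 was at the same time the highest in Hmox1, 2.50 above the vehicle mean, and second to replicate 18 in Hamp. Slc40a1 and Aco1 lay below the vehicle mean in all 10 treated livers, and Id4 likewise. Replicate 24 was closest to the vehicle mean in Slc39a14, Socs3, Hmox1 and Bach1, at 0.13, 0.07, 0.25 and 0.34 above it.

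**Figure D5:**
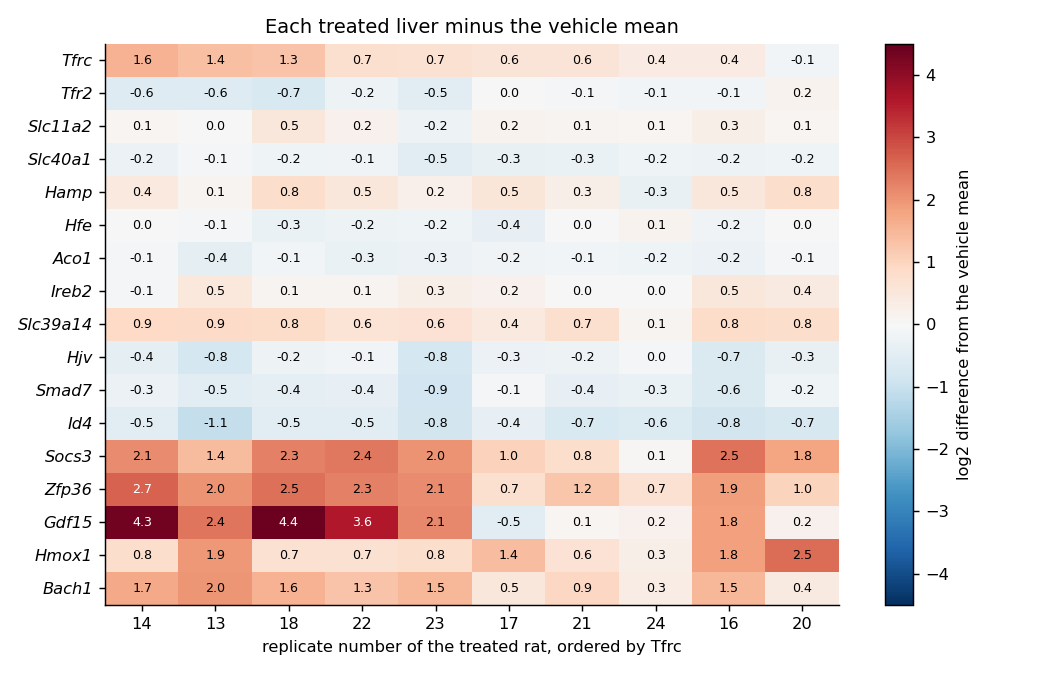
Log2 value of each treated liver minus the vehicle mean, for the 8 members and 9 other iron pathway genes, with livers ordered by Tfrc from left to right. Slc40a1 and Aco1 are below 0 throughout, Tfrc spans 1.56 to -0.12, and Gdf15 spans 4.43 to -0.49.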

How the data were processed

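Liver expression was measured on 22 arrays, 12 from vehicle and 10 from GSK932121A rats. The deposited values are log2 values from RMA, which corrects background, normalises between arrays and summarises probe sets, per the submitters' processing notes. The way probe sets were defined and the software used were not given in the sources used here. Normalisation removes a shift common to all genes, and dim probe sets are compressed. Groups came from sample titles. Of 36685 probe sets, 18511 had 1 gene symbol, 575 several and 17599 none. The probe set with the highest mean stood for a gene.

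All 18166 genes were fitted in limma (version 3.58.1, R 4.3.3) on group alone, with Benjamini-Hochberg adjustment over all genes. The fit was tested on simulated data. Correlations used 100000 permutations within each group and adjustment over all relations. Python 3.11.15 with scipy 1.17.1, pandas 2.3.3, numpy 2.4.6 and matplotlib 3.10.9 served for the rest. Promoters came from RefSeq (GRCr8). The members and lists were chosen with earlier results of these data known. Named were all members, up to 6 called genes per pathway list with the largest difference, some fixed regulators (Fth1, Ftl1, Hjv, Tmprss6, Bmp6, Id1, Smad7, Fbxl5, Slc39a14 and Hmox1) and markers. Tf, Hbb, Alas2, Stab2 and protein sequences were not used here. The list of cell type markers also held endothelial, stellate, neutrophil and lymphocyte genes. Alternatives were other normalisations, filters at a mean of 5 or 7, other handling of probe sets, variance models and tests, 5 surrogate variables and each array left out.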

Additional observations from a re-analysis of the deposited data

Results flagged for a closer look

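Among the 10 treated livers, 4 of 39 genes examined had a liver that stood apart from the rest, by Dixon's criterion on the gap to the nearest other liver, which chance alone gives in about 5% of such groups. None of them was a member. Fth1 was lowest in replicate 18, at 11.93 against 12.10 in the next liver. Smad6 was lowest in replicate 13, at 5.77 against 6.38. Stat3 was lowest in replicate 24, at 10.10 against 10.52, and Alb was lowest in replicate 14, at 13.28 against 13.36. Without the lowest liver Smad6 and Stat3 kept their calls in limma, since no array left out in turn ended either.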

How the results depend on the processing

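The log2 differences of the 8 members kept their direction under all normalisations, filters, tests and variance models tried, except that of Tfr2 with 5 surrogate variables, which was 0.0059. With those variables Tfrc stood at 0.27, Slc40a1 at -0.25 and Aco1 at -0.15, none called, so 0 members passed, and 603 of all genes did. Tfr2 was not called with median centring (-0.27), cyclic loess (-0.23), array weights (-0.26) or the Welch and Wilcoxon tests (-0.28 each). Against a 1.2-fold change 0 members and 313 genes passed, and of 4199 genes with a mean of at least 7, tested alone, 1217 passed. That filter left out Hfe and Slc11a2. Leaving out each array in turn gave -0.33 to -0.24 for Tfr2, 0.30 to 0.47 for Hamp, 3 to 5 members called, 1854 to 2386 genes called and 0 to 2 correlations past adjustment. Without vehicle replicate 4 the pair of Slc40a1 and Slc11a2 passed (r = 0.82, adjusted p = 0.0466). Of other named genes, Tmprss6 (0.040) and Clec4f (-0.063) changed sign with surrogate variables and Alb (0.030) with cyclic loess, none of them called. The cause of these changes was not tested. Each member had 1 probe set, so no other probe set could be tried. No paired analysis was possible because the groups share no replicate numbers.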

Other observations

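Marker lists of other liver cells were read as well. Of 5 endothelial markers 1 was called, Lyve1, a hyaluronan receptor of sinusoidal endothelium, which rose by 0.22 on the log2 scale (limma, adjusted p = 0.0201). Endothelial cells are the main source of Bmp6 and Bmp2 in liver, and neither of those genes passed. Of 10 hepatocyte markers 1 was called, the urea cycle gene Cps1, which rose by 0.32 (adjusted p = 0.000789). For 8 stellate cell, 11 neutrophil and monocyte, and 9 lymphocyte markers limma called 0 each, with 1, 0 and 4 at an unadjusted p under 0.05, and the Welch and Wilcoxon tests called 0 each. Over all genes limma called 12.4%, with 24% at an unadjusted p under 0.05, and the Welch and Wilcoxon tests called 11.1% and 11.3%.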
